A study of Mus musculus with 4 samples.

Results

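The regions described here were open chromatin calls that appeared in mouse liver hepatocytes 48 and 72 h after partial hepatectomy (PHx, surgical removal of most of the liver) and in neither the undamaged liver (PHx 0 h) nor the liver 96 h after PHx. Merging of touching or overlapping peaks across the 4 lists gave 200890 regions, of which 197739 lay on the 19 autosomes. The members were the 15400 autosomal regions with a peak in the 48 h and the 72 h list and none in the other lists, or 7.67% of all regions and 14.4% of the 107342 autosomal regions with a peak at 48 and 72 h. The members were therefore chosen by the peak calls themselves, and their number and times are a description. The data were single-nucleus ATAC-Seq (scATAC-Seq) libraries from hepatocytes of adult male C57BL/6J mice, labelled as 10 to 12 weeks old on a normal diet, freed by collagenase perfusion, with 1 library for each of 0, 48, 72 and 96 h. No animal carried a transgene or deletion by the labels, and 0 h served as the control. The 0 and 48 h libraries each came from 1 hepatocyte preparation. Hepatocytes were isolated from 4 mice at each time, and how many of them entered the 72 and 96 h libraries was not given in the sources used here. With 1 library per time, time and library cannot be told apart, there is no replicate error, and intervals (95%, exact) cover counting error only.

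In scATAC-Seq the Tn5 transposase cuts DNA that is free of packed nucleosomes, and the cut sites of each nucleus share a barcode. A region called in a list of peaks is one where cuts pile up above the surroundings. In the liver, most hepatocytes leave rest and divide in a wave within days of PHx, while they keep up metabolism. Promoters of housekeeping genes tend to stay open throughout, whereas distal elements, bound by factors such as AP-1 (Fos and Jun dimers, made quickly after injury) or TEAD (the DNA-binding partners of YAP), tend to open and close with the state of the cell.

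Sequences of 5 members are shown, of which 3 are among the strongest (Smad3, Col18a1 and Fcgr3) and 2 are those at the growth-control genes Ajuba and Cdkn1a. Each is 300 bases around the middle of the 48 h peak, plus strand, from the RefSeq copy of GRCm38 (mm10), the build that the submitters' processing notes name. Regions are named after the protein-coding gene with the nearest transcription start site (TSS), which is a label of place and not of function. In the first 4, capitals mark the AP-1 letters (TGANTCA) and the TEAD letters (GGAATG, or CATTCC on the other strand). In the last, capitals mark the 71 bases of a tRNA gene for glycine, n-TGgcc13.
Smad3 chr9:63793740-63794039: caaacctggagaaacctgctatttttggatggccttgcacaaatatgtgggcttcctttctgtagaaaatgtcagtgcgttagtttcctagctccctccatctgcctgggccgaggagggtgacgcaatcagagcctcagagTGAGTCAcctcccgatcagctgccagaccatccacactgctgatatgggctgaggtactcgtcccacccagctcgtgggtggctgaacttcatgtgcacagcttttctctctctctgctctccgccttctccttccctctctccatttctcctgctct
Col18a1 chr10:77142373-77142672: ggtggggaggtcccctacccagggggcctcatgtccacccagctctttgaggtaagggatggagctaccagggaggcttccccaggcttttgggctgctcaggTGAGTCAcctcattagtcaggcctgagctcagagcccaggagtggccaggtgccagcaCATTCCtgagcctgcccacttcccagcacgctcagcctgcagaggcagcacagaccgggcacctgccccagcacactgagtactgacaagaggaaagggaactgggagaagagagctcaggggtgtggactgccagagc
Ajuba chr14:54572828-54573127: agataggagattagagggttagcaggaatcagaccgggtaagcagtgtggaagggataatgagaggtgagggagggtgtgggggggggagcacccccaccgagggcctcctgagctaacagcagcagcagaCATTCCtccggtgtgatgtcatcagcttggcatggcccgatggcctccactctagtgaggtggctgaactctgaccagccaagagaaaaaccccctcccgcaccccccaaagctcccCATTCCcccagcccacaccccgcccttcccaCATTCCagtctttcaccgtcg
Cdkn1a chr17:29099678-29099977: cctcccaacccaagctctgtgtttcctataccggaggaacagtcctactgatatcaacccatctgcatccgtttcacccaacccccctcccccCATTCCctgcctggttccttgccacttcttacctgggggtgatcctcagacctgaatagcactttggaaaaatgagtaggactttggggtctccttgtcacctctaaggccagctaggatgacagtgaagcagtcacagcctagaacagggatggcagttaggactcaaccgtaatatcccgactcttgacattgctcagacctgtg
Fcgr3 chr1:171074208-171074507: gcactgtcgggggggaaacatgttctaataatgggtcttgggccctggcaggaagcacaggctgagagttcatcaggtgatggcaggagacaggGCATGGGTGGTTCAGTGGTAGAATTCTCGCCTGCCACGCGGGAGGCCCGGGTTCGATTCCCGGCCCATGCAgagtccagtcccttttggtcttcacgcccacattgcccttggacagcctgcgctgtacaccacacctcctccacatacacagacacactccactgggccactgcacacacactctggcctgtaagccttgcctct

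The libraries were of unequal depth. They held 15809769 to 136949314 counts in peaks, fewer at each later time, and 3224 to 4256 nuclei of at least 1000 counts. The lists held 119839, 158652, 164113 and 77580 peaks at 0, 48, 72 and 96 h. Between 681 and 882 barcodes were present in both libraries of a pair. Those that the 0 and 48 h libraries shared had a median of 73857 counts at 0 h and 467.5 at 48 h. At 48 and 72 h, 237 of 3892 and 125 of 4256 nuclei carried a barcode found elsewhere, and the main results on nuclei were also computed without them. The share of counts in members in hepatocyte-like nuclei was then 1.81% at 48 h and 2.19% at 72 h, beside 1.79% and 2.19% with them.

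The members were weak. In hepatocyte-like nuclei (defined below) their median level was 2.42 CPM (counts scaled to a common total of peak counts, as usual for sequencing) per kb of peak at 48 h (quartiles 2.14 and 2.72), a scale called the level per kb, and 3.28 at 72 h (2.74 and 3.86). Regions called in all 4 libraries stood at 5.45 and 6.9, and regions called at 0, 48 and 72 h at 2.9 and 3.76. The matrices hold no counts outside a library's own peaks, so nothing was measured at the members at 0 and 96 h. As a mark of the low end of each list, here called its limit, the 5th percentile of the level per kb of each list's own peaks, over all barcodes of the library, was taken, which was 1.78 at 0 h and 6.59 at 96 h. At their 48 h level, 91.5% of the members were above the 0 h limit, and at both times 86.0% were. Against the 96 h limit the picture was the opposite. At their 48 h level 35 members (0.227%) exceeded it, at their 72 h level 155 (1.01%), and none did at both. Above the median level of 96 h peaks were 13 members at 48 h and 30 at 72 h. When the 48 and 72 h lists were cut to peaks above the 96 h limit, 0 members remained. The 96 h limit does not divide what that list called from what it did not. At their 48 and 72 h levels, 31.5% and 52.9% of regions called in all 4 libraries and 0% and 2.28% of those called at 48, 72 and 96 h exceeded it, although all of these have a 96 h peak. The scale also differed between libraries, since regions called in all 4 libraries had, by chromosome, 1.85 to 2.21 times as many counts per called kb at 96 h as at 0 h. Whether the members were closed at 96 h or open and uncalled was not measured.

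**Figure D1:**
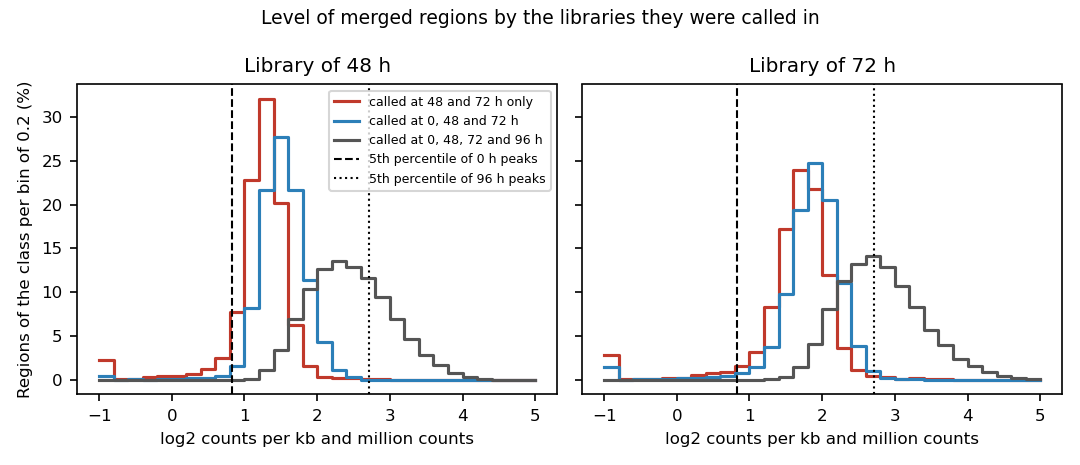
Distribution of the level of merged regions in all barcodes of the 48 h (left) and 72 h (right) library, as log2 of CPM per kb of peak (x axis), with the percent of the regions of each class per bin (y axis). Colours give the lists a region was called in, the leftmost bin holds all lower values, and vertical lines mark the 5th percentile of peak levels at 0 h (1.78) and 96 h (6.59). Members sit mostly right of the first line and left of the second.

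Some regions fell inside or outside the rule by a narrow margin. Among the members, 1640 had 10 counts or fewer at 48 h and 2789 at 72 h. Outside were 28711 regions that also had a 0 h peak, with a median of 484 bp of it and under 100 bp in 1507 of them. Another 394 also had a 96 h peak, with a median of 189 bp of it. A further 164 regions of the same pattern lay on the sex chromosomes and were not members.

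The members were short. Their median length was 465 bp (quartiles 348 and 759, range 6 to 12350), against 1424 bp for regions called in all 4 libraries and 723 bp for those called at 0, 48 and 72 h. In 14972 members there was 1 peak from each list. The 48 and 72 h peaks of a member often differed in length, and the shorter lay wholly inside the longer in 57.9% of members. The median overlap was 200 bp (quartiles 78 and 345), and it was under 100 bp in 29.5% of members. Where each peak had to cover at least 50% of the other, 6514 members were left. The level per kb of a member at 48 h hardly followed that at 72 h, with Pearson's r of 0.02 across 13804 members with enough counts on the log2 scale, against 0.17 across regions called at 0, 48 and 72 h, 0.19 across those called at 48, 72 and 96 h and 0.86 across 62830 regions called in all 4 libraries. These values are descriptions across regions of the same 2 libraries, and the members span a narrow range of levels.

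Most members lay away from promoters. A TSS of any annotated transcript was within 1000 bp of 2145 members, or 13.9% (13.4 to 14.5), against 30.4% of regions called in all 4 libraries and 12.4% of those called at 0, 48 and 72 h. Of the rest, 6833 (44.4%) were in introns, 4586 (29.8%) between genes and 1836 (11.9%) over exons. A protein-coding TSS lay inside 747 members, and the median distance to the nearest was 13415.5 bp. The nearest 0 h peak was a median of 4508.5 bp away and within 1000 bp for 10.6% of members.

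The strongest members stood out by sequence. Over all members, the AP-1 letters were present in 1774 of 15400 windows of 300 bp, or 11.5% (11 to 12), against 9.91% of all regions with a peak at 48 and 72 h. Among the 8878 members with at least 200 bp of peak at both times, ranked by the lower of their levels per kb, the share was 38.0% (28.5 to 48.3) in the strongest 100, 24.2% (20.5 to 28.2) in the strongest 500 and 9.82% (8.61 to 11.1) in the weakest 2220. For regions called at 0, 48 and 72 h the same ranks held 20% (12.7 to 29.2), 13.6% (10.7 to 16.9) and, in the weakest 5984, 9.79%. The share in the strongest 100 regions called in all 4 libraries was 8%, and 77.0% of those lay within 1000 bp of a TSS. Members over 1000 bp from a TSS gave 39.0% and 23.6% in the strongest 100 and 500. With the window at the middle of the 72 h peak the shares were 40% and 24.6%. Ranked by the 48 h level alone, 38 of the strongest 100 held the letters, and by the 72 h level alone 30. The median GC content fell from 51.7% in the weakest 2220 members to 47.0% in the strongest 100, and its part in the shares was not tested. The ranking was added after the levels had been seen, and a match is a description of letters, not a bound site.

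**Figure D2:**
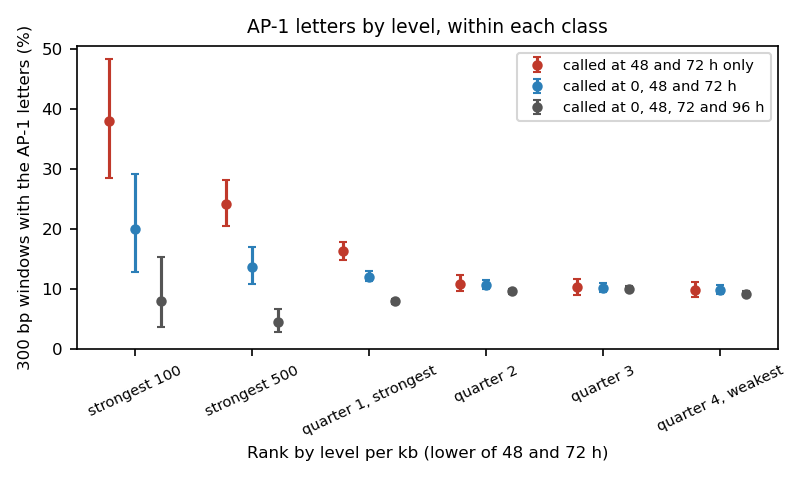
Percent of 300 bp windows with the AP-1 letters (y axis) by rank of level per kb, the lower of 48 and 72 h (x axis), for 3 classes of region, each ranked within itself. Points are shares and bars exact 95% binomial intervals, and the strongest 100 and 500 are also part of the first of the 4 equal groups. The share in members falls from 38.0% in the strongest 100 to 9.82% in the weakest 2220.

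Of the strongest members by level per kb with the AP-1 letters, one lay 35639 bp upstream of Smad3, which encodes a transducer of TGF-beta signals, at chr9:63793633-63794300. It had 151 counts in hepatocyte-like nuclei at 48 h, or a level of 4.86 per kb, and 86 at 72 h, or 5.43. Another lay in an intron near Col18a1, the gene of the collagen that gives endostatin, at chr10:77142255-77142791, with levels of 4.86 and 7.48 per kb and both the AP-1 and the TEAD letters. At 48 h, 2.23% and 2.31% of hepatocyte-like nuclei had a cut in these regions. Among 214 hepatocyte-low nuclei of that library, which were far shallower, 4 and 1 nuclei had one. Scaled to depth, the member near Smad3 stood at 9.49 CPM (7 counts) in hepatocyte-low nuclei against 2.5 in hepatocyte-like nuclei at 48 h and at 10.7 (6 counts) against 3.6 at 72 h, and that near Col18a1 had 1 count and 0 counts. Further down the strongest 100 were AP-1-letter members with Maf (a bZIP factor), Esr1 (estrogen receptor alpha), Socs1 (a brake on cytokine signals) and Ctps (CTP synthase, which makes a nucleotide for RNA and DNA) as nearest genes. These members lay 153456, 15422, 30521 and 4112 bp from the TSS. Their levels at 48 h were 4.27, 3.80, 4.06 and 3.99 per kb, and at 72 h 4.41, 3.95, 3.65 and 5.32.

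Over all members, letters of the factors that define hepatocytes were less frequent than over all regions with a peak at both times. Those regions include the members. HNF4A letters (CAAAGTCCA) were in 0.662% of members against 1.11% of all regions with a peak at 48 and 72 h, and HNF1 letters in 0.325% against 0.714%. The letters of FOXA (TGTTTAC), a factor that opens liver chromatin, were in 4.58% against 5.51%, and those of CEBP (TTGCNNAA) in 12.0% against 14.5%. CTCF letters, which mark many loop anchors, were in 4.96% against 8.41%, and SP and KLF letters (GGGCGGGG), common at promoters, in 1.81% against 3.58%. Regions called at 0, 48 and 72 h had 7.92% and 1.63%, so SP and KLF letters were no rarer in members than there. In the weakest 23961 of all regions with at least 200 bp of peak at both times, CTCF letters were in 4.84%. TEAD letters were somewhat more frequent, at 17.2% (16.7 to 17.9) against 15.7%. STAT letters (TTCCNGGAA) were equal at 1.16%. The shares also moved with rank. In the strongest 500 members CEBP letters were in 17.0% (13.8 to 20.6), FOXA in 6.8% (4.75 to 9.37), HNF4A in 1.0% (0.325 to 2.32) and CTCF in 10.2% (7.69 to 13.2). In the weakest 2220 they were in 10.8%, 4.86%, 0.405% and 2.88%. The strongest 500 regions called at 0, 48 and 72 h had 15.0%, 9.6%, 1.2% and 22.4%. In all, 7 of the 20 motifs searched, each on both strands, were more frequent in members. That count was 4 with windows at the 72 h peak, 5 with windows of 500 bp and 9 over 1000 bp from a TSS. The AP-1 letters resemble those of CREB (TGACGTCA), which have 1 more base in the middle.

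A second kind of strong member held tRNA genes, short genes read by RNA polymerase III whose products carry amino acids to the ribosome. Of the 8 strongest of the same 8878 members by level per kb, 5 overlapped a RefSeq tRNA gene, although 11 of 15400 members (0.0714%) did so in all, against 0.155% of all regions with a peak at 48 and 72 h. This overlap was looked at after the sequences had been seen. In the strongest 20 of these members 5 held such a gene, and in the strongest 100 there were 6. Regions called in all 4 libraries with a tRNA gene were likewise stronger than those without, with medians of 10.1 and 5.44 per kb at 48 h. The pair nearest Fcgr3 on chromosome 1, at chr1:171066558-171067020 and chr1:171073976-171074739, held the glycine tRNA genes n-TGgcc12 and n-TGgcc13 and stood at 6.11 and 5.80 per kb at 48 h and 5.82 and 6.98 at 72 h. On chromosome 13 there were 5 such members, with Hist1h2br (a histone gene), Gpx5, Zfp184 and Pom121l2 as nearest genes. All 11 were above the 0 h limit at both times, at 2.26 to 6.11 per kb at 48 h and 3.26 to 6.98 at 72 h. Their summed CPM at 72 h was 0.624 times that at 48 h, against 1.22 times for all members. Most of them had shorter peaks at 72 h. The nuclei with a cut were few. In the second region nearest Fcgr3 they were 140 of 3678 hepatocyte-like nuclei at 48 h (3.81%) and 35 of 3966 at 72 h (0.883%). These shares were not scaled to depth, and hepatocyte-like nuclei were deeper at 48 h. Most tRNA genes were open at all times, since 244 of 386 autosomal ones lay in regions called in all 4 libraries.

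The members with the most counts were long ones. A region of 12350 bp over exons of Arhgef26, the gene of a guanine nucleotide exchange factor, at chr3:62432303-62444652, was the longest member and the one with the most cuts at 48 h. It held 38.9 CPM (36.7 to 41.2) in hepatocyte-like nuclei at 48 h and 10.4 (8.64 to 12.4) at 72 h. At 48 h it was open in 852 of 3678 hepatocyte-like nuclei (23.2%) and in 3 of the 214 hepatocyte-low nuclei (6.78 CPM from 5 counts), and at 72 h in 132 of 3966 (3.33%) and 2 of 290. The shares of nuclei were not scaled to depth, which was greater at 48 h. Its 48 h peak covered all 12350 bp and its 72 h peak 3323 bp, with levels per kb of 3.15 and 3.13. The nearest 0 h peak was 5356 bp away. The 8 members with the highest lower CPM also lay at Nacad, Dnaic2, Gm21863, Nat10, Pacs2, Eme1 and Pdia6. Nat10 (an RNA acetyltransferase) and Dnaic2 (a subunit of ciliary dynein) were higher at 72 h, with 11 and 22.4 CPM and with 11.8 and 23 CPM at 48 and 72 h, and had longer peaks at 72 h.

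The 8 members over a protein-coding TSS with the highest CPM were at Nacad, Pacs2, Adig, Cdx2, Gm4869, Hr, Nsg1 and Celf3. They were long, and per kb several were below the median member at 48 h, such as Nacad at 2.3 and Celf3 at 2.11. Cdx2, the homeobox factor of intestinal identity, lay in chr5:147303193-147307371 with 10.2 CPM (9.13 to 11.4) at 48 h and 12.6 (10.7 to 14.8) at 72 h. Nsg1 and Celf3, both best known from neurons, had 8.04 and 9.71 CPM at 48 h and 7.83 and 7.79 at 72 h. Adig, a gene of fat cells, had 10.3 CPM at 48 h and 17.5 at 72 h. Each of the 8 was open in 6.12% to 10.5% of hepatocyte-like nuclei at 48 h. In hepatocyte-low nuclei of that library Nacad stood at 48.8 CPM (36 counts) against 15 in hepatocyte-like nuclei, Pacs2 at 23 (17 counts) against 11.2 and Celf3 at 21.7 (16 counts) against 9.71, while Cdx2 had 0 counts. At 72 h Nacad stood at 24.9 CPM (14 counts) against 12.4 and Gm4869 at 23.1 (13 counts) against 12.5, while Cdx2 had 4 counts (7.11 CPM) and Celf3 1 count.

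Among genes of growth control, Cdkn1a had a member that took fewer counts at 72 h and was called over a shorter stretch. Cdkn1a encodes p21, an inhibitor of cyclin-dependent kinases that is induced after PHx. The member began 570 bp downstream of a Cdkn1a TSS, at chr17:29098470-29101131, and had 7.11 CPM (6.19 to 8.13) at 48 h and 1.51 (0.894 to 2.38) at 72 h. Its peak spanned 2608 bp at 48 h and 430 bp at 72 h, and the level per kb was 2.73 and 3.51, so the lower CPM went with the shorter call. It was open in 184 hepatocyte-like nuclei (5%) at 48 h and 26 (0.656%) at 72 h. These shares were not scaled to depth, with medians of 12448.5 counts per hepatocyte-like nucleus at 48 h and 5142 at 72 h. A member 5723 bp downstream of the TSS of Mcm3, a subunit of the replicative helicase, held 4.3 CPM (3.59 to 5.1) at 48 h and 2.3 (1.52 to 3.34) at 72 h, with peaks of 1530 and 637 bp. The member over the TSS of Ereg, an EGF receptor ligand, held 1.98 CPM (1.51 to 2.55) and 2.3 (1.52 to 3.34), with intervals that overlapped. At Ajuba, an adaptor of the Hippo pathway, a member 291 bp upstream of the TSS with the TEAD letters 3 times in its window held 3.95 CPM (3.27 to 4.73) and 3.85 (2.82 to 5.14). Those near Axin2, a feedback inhibitor of Wnt signals, Igf2, a fetal growth factor, and Rxra, a partner of nuclear receptors, stood at 2.79, 2.25 and 5.74 CPM at 48 h and 4.02, 4.11 and 10.1 at 72 h. Near Jun, Myh9 (non-muscle myosin), Tnfrsf1a (a TNF receptor) and Smad2 (55428 bp away), the levels were 3.59, 3.42, 5.08 and 4.33 CPM at 48 h and 2.97, 3.81, 3.56 and 6.91 at 72 h. Per kb, they were 2.38, 2.89, 2.05 and 2.67 at 48 h and 3.28, 3.22, 2.99 and 3.46 at 72 h. Near Jun and Tnfrsf1a the 72 h peaks were shorter, at 908 against 1507 bp and 1191 against 2481 bp. Near Axin2, Igf2 and Rxra the levels per kb were 2.63, 2.34 and 2.74 at 48 h and 3.68, 2.49 and 3.61 at 72 h.

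The summed level of the members was higher at 72 h than at 48 h. In hepatocyte-like nuclei they took 1.79% of counts at 48 h (17880 CPM, 17830 to 17920) and 2.19% at 72 h (21850 CPM, 21770 to 21940), a log2 ratio of 0.29. The ratio was 0.01 for regions called in all 4 libraries, -0.2 for those called at 0, 48 and 72 h and 0.67 for the 394 called at 48, 72 and 96 h. The called length of the members was 7240 kb at 48 h and 6561 kb at 72 h, and their mean level per kb 2.47 and 3.33, beside 6.62 and 8.22 in regions called in all 4 libraries. Of the 13804 members with enough counts, 4100 were at least 2-fold higher at 72 h and 2288 at least 2-fold lower, where 8.06% and 8.23% of all 105107 regions with a peak at both times were. A member's level ratio largely followed the ratio of its called lengths (r of 0.95 across members). In the 1513 members whose peaks differed in length by under 10% the median log2 ratio was 0.42, against 0.38 in such regions called at 0, 48 and 72 h and 0.31 in those called in all 4 libraries. Counted as nuclei with at least 1 cut, the summed log2 ratio was 0.09. By distance from a 0 h peak, the summed ratios were 0.998 up to 1000 bp, 1.13 to 5000 bp, 1.31 to 20000 bp and 1.63 beyond. The median level per kb differed little over the same groups, at 2.39, 2.41, 2.42 and 2.46 at 48 h and 3.2, 3.25, 3.28 and 3.43 at 72 h.

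The nuclei were clustered on regions called in all 4 libraries, so the members took no part in their classes. Of 7 clusters, 5 had a mean log2 hepatocyte marker level of 0.354 to 0.696, relative to the mean over clusters, and are called hepatocyte-like, and 2 at -1.31 and -1.44 are called hepatocyte-low. Hepatocyte-like nuclei numbered 3678 at 48 h and 3966 at 72 h, with medians of 12448.5 and 5142 counts, and hepatocyte-low nuclei 214 and 290, with medians of 2050.5 and 1608. Counts in members were spread over the nuclei. Every one of these nuclei had a count in a member. A hepatocyte-like nucleus had a median of 1.86% of its counts in members at 48 h (5th to 95th percentile 1.13 to 2.65) and 2.17% at 72 h (1.39 to 3.05). Thinned to 1000 counts per nucleus, a member was open in a mean of 0.114% of hepatocyte-like nuclei at 48 h and 0.127% at 72 h, and a nucleus had a median of 17 and 19 open members. Without thinning the means were 1.14% and 0.515%, in the order of depth.

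Nuclei that clustered with those of 0 or 96 h had fewer of their counts in members than the others of their library, and those that clustered with the other time of 48 and 72 h did not. Cluster 0, with 3671 of its 3836 nuclei from the 0 h library, also held 116 nuclei of the 48 h library, and those had 1.05% of their counts in members (1.03 to 1.08), against 1.82% (1.81 to 1.82) in the 2709 nuclei of cluster 3, which was mostly of that library. Without barcodes found elsewhere, 99 of the 116 remained, at 1.07%. In the 72 h library the 35 nuclei of cluster 0 had 0.907% (0.784 to 1.04), but all 35 shared a barcode with another library. Cluster 1, mostly of the 96 h library, held 138 nuclei of the 72 h library with 1.7% (1.64 to 1.75), against 2.17% (2.16 to 2.18) in the 2790 nuclei of cluster 2, mostly of 72 h. The 56 nuclei of the 48 h library in cluster 2 had 1.99% (1.92 to 2.07), and the 43 nuclei of the 72 h library in cluster 3 had 2.29% (2.2 to 2.39). Within a library these nuclei were all measured over the same peaks. The lower share was not particular to members. Relative to all hepatocyte-like nuclei of 48 h, cluster 0 had 0.589 times the share in members, 0.604 times in regions called at 48 h only, 0.602 times in those called at 48, 72 and 96 h and 0.75 times in those called at 0, 48 and 72 h. In cluster 1 at 72 h the values were 0.776 for members, 0.78 for regions called at 72 h only and 0.811 for those called at 48, 72 and 96 h.

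**Figure D3:**
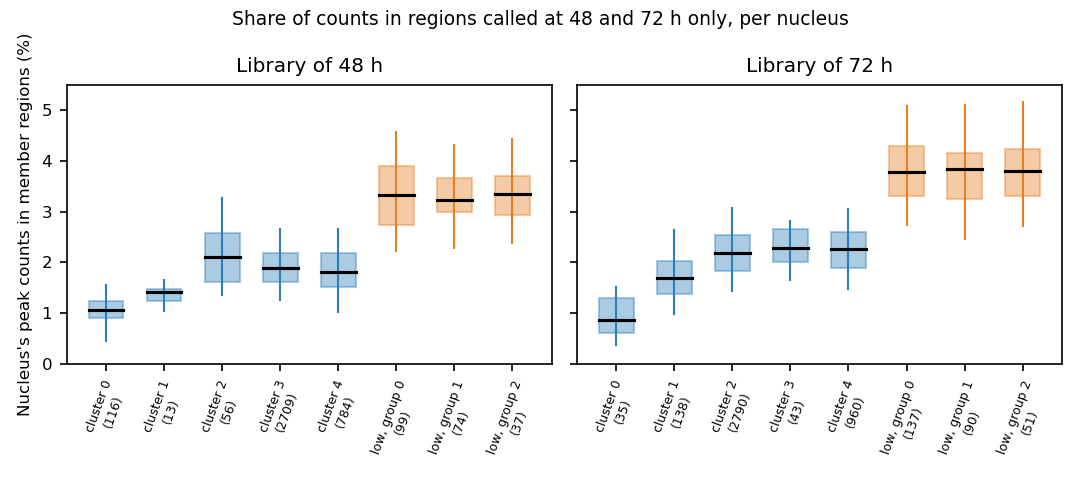
Percent of each nucleus's peak counts that fell in member regions (y axis) in the 48 h (left) and 72 h (right) library, for the 5 hepatocyte-like clusters (blue) and 3 groups of hepatocyte-low nuclei (orange), with the number of nuclei in brackets. Black lines are medians, boxes quartiles and lines the 5th to 95th percentile. Cluster 0 is lowest, with a median of 1.06% at 48 h, and the hepatocyte-low groups are highest.

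The hepatocyte-low nuclei had the larger shares. At 48 h 3.11% of their counts (3.06 to 3.17) fell in members and at 72 h 3.67% (3.60 to 3.74), 1.74 and 1.68 times the hepatocyte-like values. A second clustering of these nuclei, added after the first had been seen, gave 3 main groups. Against hepatocyte-like nuclei, 8 of 10 endothelial markers were up by 2-fold or more in group 0, as were 5 of 5 detected myeloid markers (of 8 listed) in group 1 and 6 of 7 detected stellate and mesenchymal markers (of 8 listed) in group 2. The summed level of endothelial markers was 1023 CPM in group 0 against 288.8 in hepatocyte-like nuclei, that of myeloid markers 648.4 in group 1 against 186.8, and that of stellate markers 290.4 in group 2 against 103.9. Their shares in members were alike, at 3.24%, 3.2% and 3.38% at 48 h and 3.82%, 3.7% and 3.71% at 72 h. A small group 3, with 4 nuclei at 48 h and 12 at 72 h, had 0 of 10 hepatocyte markers 2-fold lower, against 10, 8 and 9 in groups 0 to 2, and stood nearer to hepatocyte-like nuclei, at 1.92% and 2.74%. Regions called in a single list behaved in the same way, with ratios of 1.61 for 48 h alone and 1.91 for 72 h alone. At 48 and 72 h, regions called at 48, 72 and 96 h had 1.56 and 1.45, and those called at 0, 48 and 72 h 1.24 and 1.28. Regions called in all 4 libraries had 0.949 and 0.939. The hepatocyte-low nuclei were also shallower. Thinned to 1000 counts per nucleus, a member was open in a mean of 0.166% of hepatocyte-low nuclei at 48 h and 0.178% at 72 h. The hepatocyte-like values were 0.114% and 0.127%. The part of depth in the ratio of count shares was not tested. Among hepatocyte-like nuclei the 4 groups by depth had 2%, 1.95%, 1.83% and 1.71% at 48 h from the shallowest to the deepest, and 2.16%, 2.2%, 2.24% and 2.16% at 72 h. The strongest 500 members had lower ratios. For those with the AP-1 letters (121) the ratio of hepatocyte-low to hepatocyte-like level was 0.932 (0.736 to 1.17) at 48 h and 0.757 (0.569 to 0.988) at 72 h, against 2.21 (2.07 to 2.35) and 1.88 (1.76 to 2.01) for 924 weaker members with these letters. Without the letters the ratios were 0.715 (0.615 to 0.827) and 0.988 (0.86 to 1.13) in the other 379 of the strongest 500 and 1.74 and 1.66 in 7454 weaker members, so the lower ratio went with rank in both. The ranking used the level in hepatocyte-like nuclei, so these ratios are a description of the ranks and no test. Region by region the classes could hardly be compared. At 48 h 14 members had enough counts, 1 at least 2-fold higher in hepatocyte-low nuclei and 5 lower, where 10.6% and 28.1% of 18077 regions were. At 72 h 2 members could be read and 0 differed by 2-fold, where 7.70% and 22.1% of 13250 regions did.

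Of 20780 autosomal protein-coding genes, 6628 (31.9%) had the TSS nearest to at least 1 member. Longer genes had members more often, from 15.9% of the shortest 5195 genes to 57.2% of the longest 5195, and the lists below are to be read beside that. TGF-beta and activin genes had members most often, 14 of 17, with a median gene length of 61710 bp. Smad7, the feedback inhibitor of this pathway, was nearest to 21 members, of which 5 lay within 50 kb, Inhbb, an activin subunit, to 11, and the receptor genes Tgfbr2 and Acvr2a to 8 each. Of mesenchymal genes 9 of 12 had a member, with 12 at Cdh2 (N-cadherin). Of cytoskeleton and adhesion genes 10 of 15 did, of growth factor receptors and ligands 11 of 17, with 9 at Igf1r, and of YAP and TEAD genes 9 of 14, with 8 at Tead1. Wnt and zonation genes had members at 7 of 12, with 9 at Tbx3. IL6, STAT3 and NF-kB genes had them at 8 of 14, with 18 at Nfkb1 and 7 at Il6st, the shared receptor of IL6 cytokines. AP-1 and immediate early genes had them at 7 of 14, short genes with a median of 5073 bp, with 13 at Jun and 6 at Myc. Biliary and fetal genes had members at 6 of 12 and 5 of 10, and hepatocyte identity factors at 6 of 14. Some of these counts rest on distant members. Counting members within 50 kb of the TSS, they were 3 for biliary genes, 5 for fetal genes, 1 for hepatocyte identity factors, 8 for growth factor receptors and ligands and 5 for Wnt and zonation genes, where 5973 of all 20780 genes (28.7%) had one.

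Genes of the cell cycle and of liver function were near the average over all genes or below it. DNA replication genes had a member at 6 of 18, mitosis genes at 5 of 16 and G1 regulators at 5 of 14, and within 50 kb at 6, 3 and 4. Of 17 hepatocyte function genes, such as albumin and the urea cycle enzymes, 1 was nearest to a member. That was Cps1, with a member 355180 bp away that had 23 counts in hepatocyte-like nuclei at 48 h and 0 at 72 h. No gene list was tested. The genes nearest to the most members were Adgrl2 (46), an adhesion receptor, Casz1 (35), a zinc finger factor, Klf12 (31), a repressor, Etv6 (30), an ETS family repressor, and Cdh4 (28), a cadherin, with 19, 28, 22, 18 and 17 of these within 50 kb. All 5 are long genes of 150461 to 456943 bp. The strongest members among them were at Adgrl2, with 11.3 CPM at 48 h and 9.18 at 72 h, and at Casz1, with 6.53 and 8.46.

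Regions called in all 4 libraries gave a view of the members' surroundings at 0 and 96 h. The 2924 such regions within 2000 bp of a member took 3.96% of the counts in all such regions at 0 h, 5.05% at 48 h, 5.55% at 72 h and 4.7% at 96 h in hepatocyte-like nuclei, ratios to 0 h of 1.28, 1.4 and 1.19. The 30028 regions over 50000 bp from a member took a smaller share than at 0 h, with ratios of 0.927, 0.893 and 0.923. Sums of this kind move with how much was called. At 48 h the called length near members was 1.33 times that at 0 h and the counts per called kb 0.964 times, against 1.0 and 0.923 far from members. At 72 h length and counts per kb were 1.11 and 1.26 times those at 0 h, against 0.803 and 1.11, and at 96 h 0.496 and 2.39 times, against 0.464 and 1.99. Relative to 0 h, both called length and counts per kb were thus larger near members than far from them at 48, 72 and 96 h, without replicate error. Without barcodes found elsewhere the ratios within 2000 bp were 1.27, 1.39 and 1.18.

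**Figure D4:**
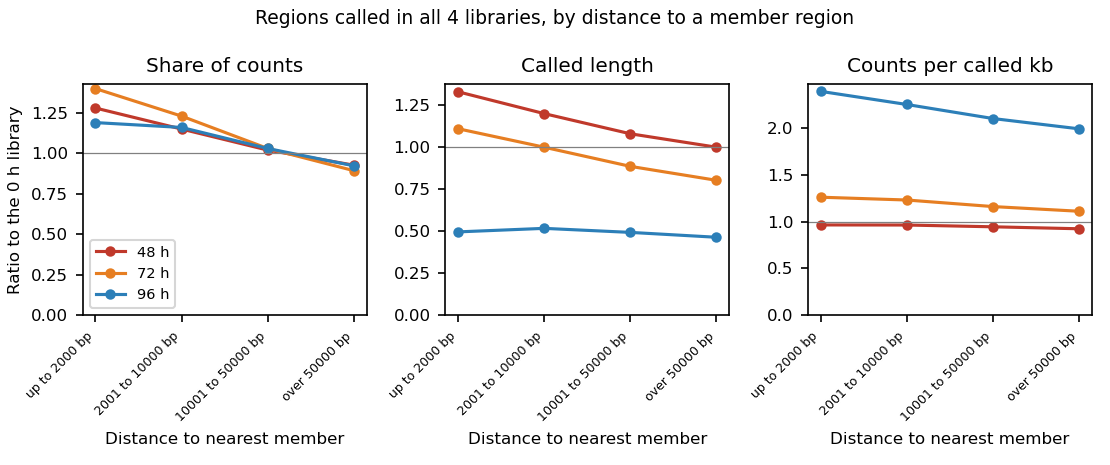
Regions called in all 4 libraries, grouped by distance to the nearest member (x axis). Panels give the ratio to the 0 h library (y axis) of their share of counts in hepatocyte-like nuclei, their called length and their counts per called kb, with 1 line per later time. The share of counts within 2000 bp is 1.28, 1.4 and 1.19 times that at 0 h.

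Members were unevenly spread over the chromosomes. Per 100 regions called in all 4 libraries there were 37.5 members on chromosome 2, 33.3 on chromosome 1, 15.3 on chromosome 11 and 8.04 on chromosome 19. The share of counts that a whole chromosome took in regions called in all 4 libraries tended to follow member density, with exceptions such as chromosome 1, which stood above chromosome 2 at 96 h. On chromosome 2 it was 1.1, 1.21 and 1.13 times the 0 h share at 48, 72 and 96 h, and on chromosome 19 0.766, 0.848 and 0.823 times (0.772, 0.862 and 0.838 without barcodes found elsewhere). Across the 19 autosomes, which share their libraries, member density and this ratio had Pearson's r of 0.92 at 48 h, 0.88 at 72 h and 0.85 at 96 h (Spearman's rank correlation 0.92, 0.83 and 0.81), and 0.9, 0.79 and 0.77 without the 2 autosomes farthest from the median density. The called length moved too, at 1.15 times that at 0 h on chromosome 2 and 0.903 times on chromosome 19 at 48 h. The part of such chromosome-wide shifts in the peak calls was not tested.

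**Figure D5:**
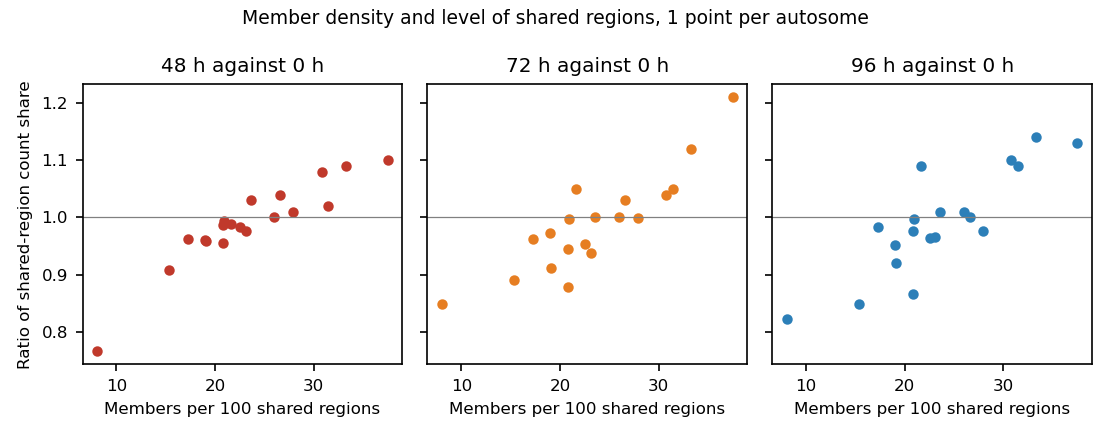
Members per 100 regions called in all 4 libraries (x axis) against the ratio of a chromosome's share of counts in those regions to its share at 0 h (y axis), in hepatocyte-like nuclei at 48, 72 and 96 h, with 1 point per autosome. The lowest point in each panel is chromosome 19, at 0.766, 0.848 and 0.823.

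Within chromosomes members came in groups. The median gap between neighbouring members was 39051 bp, and 25.2% of gaps were of 10000 bp or less. Of 2322 bins of 1 Mb, 154 held 20 members or more, and these held 4332 members (28.1%), against a median of 4 per bin. The densest bin, on chromosome 4 from 148 Mb and containing Casz1, held 75 members beside 60 regions called in all 4 libraries. In bins with 20 or more members, regions called in all 4 libraries took 1.1, 1.18 and 1.11 times their 0 h share of counts at 48, 72 and 96 h, and in bins with none 0.941, 0.899 and 0.99 times.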

How the data were processed

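The authors sequenced scATAC-Seq libraries (10x Chromium) of hepatocyte nuclei at 0, 48, 72 and 96 h. The deposited matrices hold counts, whole numbers of cut sites per peak and barcode (software version 1.1.0 per the file headers, mm10 per the submitters' notes), and the peak lists, called per library, carry positions without scores. An even number made up 87.4% to 88.6% of the values, so Poisson intervals were computed on counts divided by 2. The members and all lists were chosen with earlier results of these data known.

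Touching or overlapping peaks were merged. Nuclei had at least 1000 counts, and no doublet caller was run. TF-IDF, singular value decomposition (30 components, the first left out), 30 neighbours and Leiden clustering (leidenalg 0.10.2, resolution 0.5) used autosomal regions called in all 4 libraries. A cluster below -1 in mean log2 hepatocyte marker level was hepatocyte-low. CPM used the summed peak counts of the class. The 2-fold counts used a pseudocount of 0.1 CPM (1 between nucleus classes) and at least 10 predicted counts. Gene models were GENCODE vM21, tRNA genes RefSeq. Regions were named by rule: the 8 highest per kb, by CPM and over a protein-coding TSS, the strongest per gene list and for the 5 genes with the most members, and members with 10 predicted counts that were over 2-fold higher in hepatocyte-low nuclei at both times (0 found). Members near Maf, Esr1, Socs1 and Ctps were picked after their values were seen. Some regions and genes that the rule names are not reported here. The scripts were tested on simulated data. Alternatives were other merging, overlap, peak strength, distance, depth, clustering, thinning, scaling, TSS, limit and window settings.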

Additional observations from a re-analysis of the deposited data

How the results depend on the processing

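No paired analysis was possible because each time has 1 library. Merging peaks up to 500 bp apart gave a median length of 476 bp, 89.5% above the 0 h limit, open shares of 0.105% and 0.117% (48 and 72 h) and a log2 ratio of 72 to 48 h of 0.30. Requiring 48 and 72 h peaks to cover 50% of each other gave 6514 members, 453 bp, 97.9%, 0.124% and 0.152%, a hepatocyte-low to hepatocyte-like ratio of 1.61 at 72 h and a log2 ratio of 0.44. Keeping the strongest peaks, as many as at 0 h, gave 4460 members, 446 bp, 13.2% within 1000 bp of a TSS, 100% above the limit, class ratios of 1.48 and 1.46, open shares of 0.130% and 0.147% and a log2 ratio of 0.32. Members at least 1000 bp from 0 and 96 h peaks gave 0.113%, 0.129% and 0.32. Nuclei of 3000 counts or more gave class ratios of 1.66 and 1.55 and open shares of 0.116% and 0.132%. Resolution 1.0, and likewise leaving out barcodes found elsewhere, gave an open share of 0.128% at 72 h, and the latter a log2 ratio of 0.28. Thinning to 2000 counts gave 0.219% and 0.238%, and no thinning 1.14% and 0.515%. The hepatocyte-low groups 0, 1 and 2 alone gave 1.81, 1.79 and 1.89 at 48 h, and group 0 1.75 at 72 h. Protein-coding TSS gave 10.2% and 500 bp 10.3%. Scaling to regions of all 4 libraries gave a log2 ratio of 0.27, and counting nuclei 0.09. The 10th percentile of 0 h peaks gave 84.7%, the 96 h limit 0.227%, and 48 and 72 h peaks above that limit 0 members. Windows at the 72 h peak gave 4 motifs above all regions. Over 1000 bp from a TSS single motifs changed side, as ETS (ratio of members to all of 0.52 and there 1.07) and E2F (0.778 and 1.14) did. The causes were not tested. The class ratios and the ratio of 72 to 48 h over all members kept their direction in the alternatives given here. In the strongest 500 members by level the class ratios at 48 and 72 h were 0.932 (0.736 to 1.17) and 0.757 (0.569 to 0.988) with the AP-1 letters. Without the letters they were 0.715 (0.615 to 0.827) and 0.988 (0.86 to 1.13). The intervals of 0.932 and 0.988 included 1. The ranking used the level in hepatocyte-like nuclei, which divides the ratio, so these values are no test of it. Alternatives on shared barcodes, the 96 h limit, hepatocyte-low groups and ranks by level were chosen after seeing the data. Among the limits are the 1 library per time and the few counts of most members (medians of 54 at 48 h and 29 at 72 h).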
